A study of Homo sapiens with 24 samples.

Results

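The mitochondrial ribosomal protein genes are the entries whose symbol is MRPL or MRPS followed by a number and, in a few, a letter. The rule uses names only, and it found 77 genes among 26249. All 77 reached 1 FPKM in at least 3 of the 24 libraries, the minimum for testing, which 12418 genes passed. FPKM is the fragment count of a gene scaled by transcript length and library size. The libraries came from MM1S and H929, 2 long-established lines of human myeloma, a cancer of plasma cells. The study compared the vehicle DMSO with YKL-5-124, named in the labels by this code alone, which the series title places under CDK7 inhibition. Its 8 groups of 3 libraries were H929 with DMSO for 6 h, H929 with 83 nM YKL-5-124 for 6 h, the same pair at 24 h, and the matching 4 groups of MM1S with 98 nM YKL-5-124. The DMSO labels carry the dose figure of their line, so line and dose cannot be told apart. No gene was altered in any group, and all cells grew in the same serum-containing medium.

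Mitochondria keep a small genome, and the proteins it encodes are made by a ribosome of their own. The RNAs of that ribosome come from the mitochondrial genome, whereas every one of its proteins is encoded in the nucleus, made in the cytosol and imported. Proteins of the large subunit carry the prefix MRPL and those of the small subunit MRPS, with exceptions such as MRPS30 and MRPS18A, which sit in the large subunit. Some have a counterpart in the bacterial ribosome and others exist only in mitochondria. The products of mitochondrial translation are core subunits of the respiratory chain and the ATP synthase. CDK7 is a kinase of the general transcription factor TFIIH and also activates other cyclin-dependent kinases.

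By these roles, 50 of the 77 genes encode large-subunit proteins, 30 with a bacterial counterpart and 20 without. Another 26 encode small-subunit proteins, 16 with a bacterial counterpart and 10 without. MRPS36 bears the name but is a component of the 2-oxoglutarate dehydrogenase complex.

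Short promoter stretches of some genes that recur in the results are shown to place them. They are RefSeq sequence on GRCh38.p14, a later build than the hg19 of the deposited values. Where the last 120 bases before the start touched an annotated exon, 30 bases around an ETS, NRF1 or YY1 match were taken instead. Genes without such a match, MRPS6, MRPL1, MRPS2 and MRPL49 among them, were then left out. The matches in the 30-base stretches therefore follow from how these were chosen. Capitals mark a match to a motif of a factor known for mitochondrial genes, and the sequence is written 5′ to 3′ on the gene's strand. A stretch need not hold every match of its promoter. MRPL27 had 2 ETS matches and MRPL17 had 3 NRF1 matches in the window counted below, and 1 of each is marked. MRPL27 was lower with YKL-5-124 at each time in each line, MRPL48 at 24 h in both lines, and MRPL54 and MRPL17 in 3 of the 4 comparisons. MRPL11 was lower at 24 h in both lines and has none of the motifs in its last 120 bases before the start. MRPL28 was called higher once, and MRPS12 faces the start of another mitochondrial translation gene.
MRPL27 (chr17:50373185-50373214, minus strand, ETS in capitals): cggaagtagaaacttttcgagaCCGGAAGt
MRPL54 (chr19:3762649-3762678, plus strand, ETS): ggccactgacgtCTTCCGGaaacgtgcact
MRPL48 (chr11:73787799-73787828, plus strand, ETS): gaatttcagaagCTTCCGGaactaaaatga
MRPS12 (chr19:38930924-38930953, plus strand, ETS): ctgcacggatagcgcCCGGAAGaggctaga
MRPL17 (chr11:6683366-6683395, minus strand, NRF1): ctccgagctaagGCGCATGCGttccctgaa
MRPL11 (chr11:66438849-66438968, minus strand, no match): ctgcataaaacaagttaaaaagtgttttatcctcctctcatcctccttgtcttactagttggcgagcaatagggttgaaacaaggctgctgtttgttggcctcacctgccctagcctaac
MRPL28 (chr16:370539-370658, minus strand, Sp1): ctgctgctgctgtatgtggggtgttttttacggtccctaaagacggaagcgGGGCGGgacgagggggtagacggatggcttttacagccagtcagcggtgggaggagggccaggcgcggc

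The motifs were counted on both strands from 250 bases before to 50 bases after each start. RefSeq's table held 84 such promoters for 68 of the 77 genes. The ETS letters CCGGAAG, the core bound by GABP and its relatives, stood in 32 of the 84 promoters (38.1%), against 17.2% of 13057 promoters of tested genes and 10.3% of 35116 in the table. The YY1 letters AAGATGGCG stood in 13 (15.5%), against 3.68% and 1.75%. Matches to NRF1, GCGCANGCG, were found in 17.9% of the promoters, against 13.2% and 7.52%. The Sp1 letters GGGCGG (59.5% against 65.4% and 45.0%), CCAAT (33.3% against 35.1% and 34.6%) and the E-box CACGTG (10.7% against 9.77% and 7.26%) were at or near the level of tested genes. No promoter of the 84 had an ETS match overlapping a YY1 match, and 3 of the 13057 did. A match describes letters in a window and is no evidence of binding.

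The response of genes with and without each motif was described by its median, with no test. At 24 h in H929, after the rescaling described below, the median log2 change was -0.26 over the 29 genes with an ETS match and -0.41 over the 39 without. The corresponding medians for YY1 were -0.35 over 13 genes and -0.31 over 55, and those for NRF1 were -0.27 over 14 and -0.37 over 54. The widest gap was that of Sp1, with -0.26 over 41 genes with a match and -0.50 over 27 without, of which 14 and 16 were called lower. CCAAT gave -0.27 over 23 and -0.39 over 45, and the E-box -0.27 over 9 and -0.35 over 59.

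The libraries did not share a scale, and 2 scales are therefore given throughout. Summed gene FPKM ran from 361698 to 2519630 per library, while the sum of the added ERCC spike-in RNAs stayed between 137825 and 150501. Whether the authors scaled to the spike-ins is not given in the sources used here. The deposited scale takes the values as they are. The rescaled values divide each library by its median ratio to the other libraries over 6014 well-measured genes, so that a change is relative to the typical gene. Read numbers are not part of the files, so the depth behind a value is unknown. Spike-in values spread most in MM1S YKL-5-124 6 h replicate 2 and MM1S DMSO 24 h replicate 1. Plasma cell markers summed to between 1760 and 14520 FPKM, with at least 8 of 9 at 1 FPKM or more in each group, and T cell markers to at most 4.95 FPKM. Monocyte markers summed to at most 48.1 FPKM and epithelial and fibroblast markers to at most 34.5, both highest in H929. FGFR3, a receptor gene translocated in H929, averaged 23.8 FPKM or more in each H929 group and 0.476 or less in each MM1S group.

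Together the 77 genes supplied from 0.680% to 1.11% of the gene FPKM of a library. Their summed FPKM in H929 was 18069, 22217 and 23348 with DMSO at 6 h and 12716, 19849 and 18989 with YKL-5-124, so that the groups overlapped. At 24 h the H929 sums were 18907, 19440 and 17274 with DMSO and 9376, 5340 and 10944 with YKL-5-124. All treated libraries lay below all controls there. In MM1S the 6 h sums were 11504, 11553 and 10560 with DMSO and 8287, 7454 and 7989 with YKL-5-124, again apart. The MM1S 24 h sums overlapped, with 4907, 6667 and 3197 in DMSO and 2917, 3258 and 3811 in YKL-5-124. In bulk RNA, fewer cells and less RNA per cell cannot be told apart.

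A share of the library does not depend on its scale. With the 10 highest genes of each library left out, since a single small-RNA host gene, SNHG25, took 5.44% to 28.7% of the FPKM, the share of the mitochondrial ribosomal protein genes in H929 was 1.36% to 1.41% with DMSO and 1.29% to 1.33% with YKL-5-124 at 6 h. At 24 h it was 1.35% to 1.38% and 1.18% to 1.21%. In MM1S it was 1.40% to 1.41% and 1.26% to 1.27% at 6 h. These 3 pairs of groups did not overlap, and the treated libraries were the lower. At 24 h in MM1S the range was 1.21% to 1.47% with DMSO and 1.22% to 1.33% with YKL-5-124. MM1S DMSO 24 h replicate 1 gave the highest value. The summed FPKM after rescaling was apart in H929 at both times, with the treated libraries lower, and overlapped in MM1S at both times. At 6 h in MM1S the rescaled sums were 9440 to 10299 with DMSO and 9147 to 9937 with YKL-5-124.

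**Figure D1:**
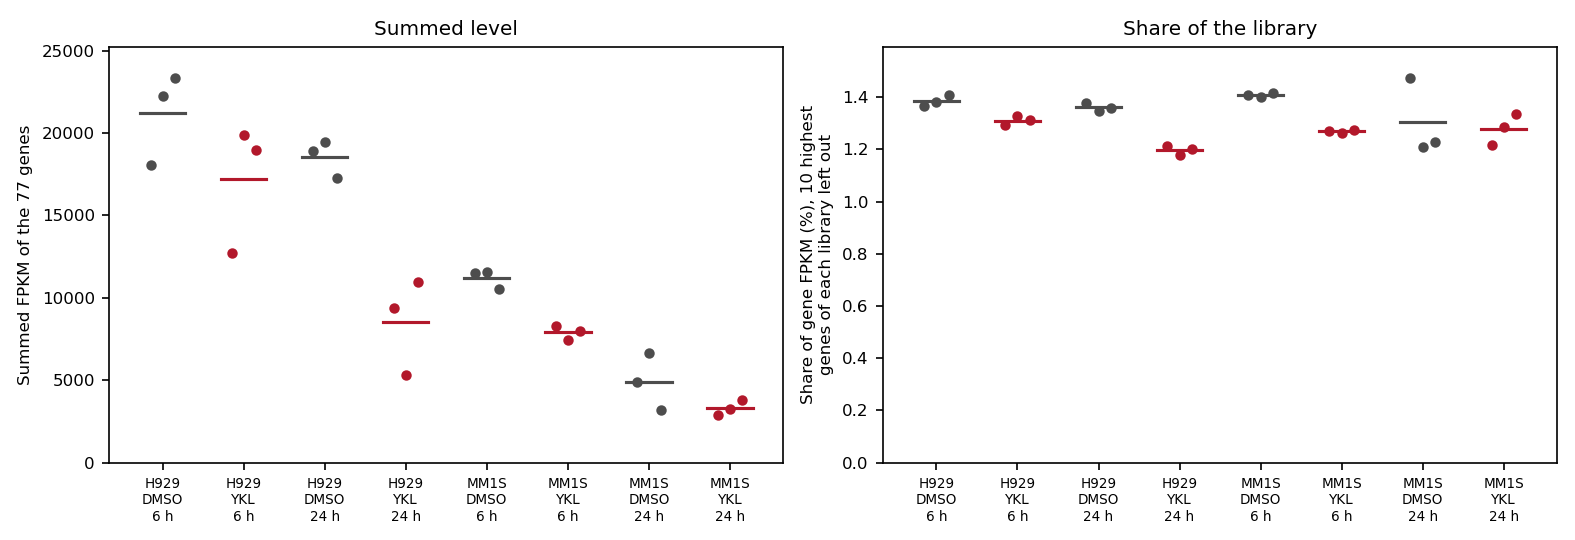
Left, summed FPKM of the 77 genes in each library; right, their share of gene FPKM in percent with the 10 highest genes of the library left out. Dots are libraries, lines are means of 3, grey is DMSO and red YKL-5-124. H929 sums at 24 h fall from 17274 or more with DMSO to 10944 or less with YKL-5-124.

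Levels differed widely within the set. FPKM divides by gene length although these libraries read the 3′ end, so the order of genes also carries their length. MRPS24, a small-subunit protein, had the highest mean over the 24 libraries at 852 FPKM, followed by MRPS21 at 692 and MRPL20 at 588. The median of the 77 means was 86.5 FPKM. MRPL19 at 6.38, MRPS31 at 6.42 and MRPL39 at 7.69 FPKM were the lowest. The order at the top differed between the lines. In H929 the means were highest for MRPS21 (1115 FPKM), MRPL24 (966) and MRPS24 (917), and in MM1S for MRPS24 (788), MRPL33 (487) and MRPL20 (323), each over 12 libraries. The same 3 genes were lowest in each line.

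Treatment of H929 for 24 h moved the set most widely. On the deposited scale 68 of the 77 genes fell and none rose by limma's moderated test with Benjamini-Hochberg adjustment over all tested genes at 0.05, where 35.4% of all tested genes were called lower and 2.67% higher. The median log2 change was -1.15, against -0.46 over all tested genes and -0.66 over the 8251 genes that reach 5 FPKM in at least 3 libraries, as all 77 do. With only those genes tested, 68 of the 77 again fell, beside 48.1%. After rescaling 34 fell and 1 rose, beside 12.5% and 20.8% of all tested genes, with a median of -0.35 against 0.13. Among genes that reach 5 FPKM it was 36 lower and 2 higher, beside 18.8% and 25.1%. The 34 genes called lower after rescaling were all called lower on the deposited scale too. In 73 genes on the deposited scale, and in 47 after rescaling, every treated library lay below every control. The share of all tested genes that did so is not given here, so these counts do not set the 77 genes apart. Leaving out single libraries gave 47 to 70 lower calls on the deposited scale and 27 to 32 after rescaling.

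The lower calls after rescaling came from both subunits, 23 of 50 large-subunit and 11 of 26 small-subunit genes. Among large-subunit genes, 17 of 30 with a bacterial counterpart fell (median -0.48) and 1 rose, and 6 of 20 mitochondria-specific ones fell (median -0.23). Of the small-subunit genes, 5 of 16 with a bacterial counterpart (median -0.28) and 6 of 10 mitochondria-specific ones (median -0.46) fell. By place in the particle, 3 of 5 stalk genes (MRPL10, MRPL11, MRPL12, MRPL53 and MRPL54, where translation factors dock) fell with a median of -0.61. So did 3 of 5 central protuberance genes (median -0.86) and 3 of 6 genes at the exit of the peptide tunnel (median -0.44). None of 8 small-subunit head genes was called after rescaling (median -0.17), although 6 of them were on the deposited scale.

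At 6 h the H929 response was narrow. A single gene, MRPL27, fell on the deposited scale, beside 1.16% of all tested genes called lower and 1.03% higher, and the median was -0.34 against -0.06. By limma's unadjusted p under 0.05, 9 were lower and none higher. With the 2 groups fitted alone, which leaves fewer libraries to estimate the spread, no gene was called. After rescaling MRPL27, MRPS2, MRPL15 and MRPL46 fell and MRPL23 rose, beside 4.19% and 5.1% of all tested genes (median -0.15 against 0.07). All treated libraries lay below all controls in 17 genes on the deposited scale, and after rescaling they did so in 23 and above in 6. Shares of all tested genes are given neither for these counts nor for those by unadjusted p. MRPS2, a small-subunit protein with a bacterial counterpart, had the smallest adjusted p after rescaling, with a change of -0.70 (SE 0.11, adjusted p = 0.000372).

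In MM1S at 6 h the deposited scale gave 11 lower genes and no higher one, beside 10.0% of all tested genes called lower and 0.926% higher. The median of -0.49 stood against -0.29 over all tested genes. Among genes that reach 5 FPKM the count was again 11 (14.3% of the 77), beside 14.5% and a median of -0.39. The share of the set was thus near that of genes above this floor, which is no match on level. Leaving out any of the 6 libraries, controls included, gave 3 to 6, leaving out both libraries with the widest spike-in spread gave 4, and fitting the 2 groups alone gave 38. After rescaling 10 fell and 3 rose, beside 7.22% and 8.25%, with a median of -0.03 against 0.05, and 9 of the lower calls were shared by both scales. Of genes that reach 5 FPKM, 11.25% were lower and 10.0% higher after rescaling. The share of the 77 called lower was near theirs. Without both libraries of wide spike-in spread the rescaled count stayed at 10, it was 6 without DMSO 6 h replicate 3 or YKL-5-124 6 h replicate 2, and with the 2 groups alone 5 were lower and 1 higher. On the deposited scale 55 genes had every treated library below every control. After rescaling that held for 15, and 14 lay wholly above. Without the same shares over all tested genes, which are not given here, these counts describe the 77 genes only.

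At 24 h in MM1S, 6 genes fell on the deposited scale, beside 6.77% of all tested genes called lower and 0.684% higher. They were MRPL11, MRPL17, MRPL27, MRPL48, MRPL54 and MRPS6, and all 6 also fell at 24 h in H929. The median was -0.38, against -0.12 over all tested genes. Among genes that reach 5 FPKM the count was again 6 (7.79% of the 77), beside 10.7% and a median of -0.19. The share called was thus below that of genes above this floor, which is no match on level. Without MM1S DMSO 24 h replicate 2 or YKL-5-124 24 h replicate 1 the count was 2, and without MM1S DMSO 24 h replicate 3 it was 17. After rescaling 18 fell and 2 rose, beside 13.3% and 14.4%, with a median of -0.12 against 0.05. Of these 18, 13 fell in H929 at 24 h as well. Among genes that reach 5 FPKM, 21 fell after rescaling, beside 18.0%. Without both libraries of wide spike-in spread, 5 fell on the deposited scale and 13 after rescaling. With the 2 groups alone, the counts were 2 (MRPL27 and MRPL48) and 7, and none rose. Non-overlapping libraries below the controls were seen for 15 genes on the deposited scale and 22 after rescaling, where 6 lay above. How many of all tested genes were apart in this way is not given here.

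**Figure D2:**
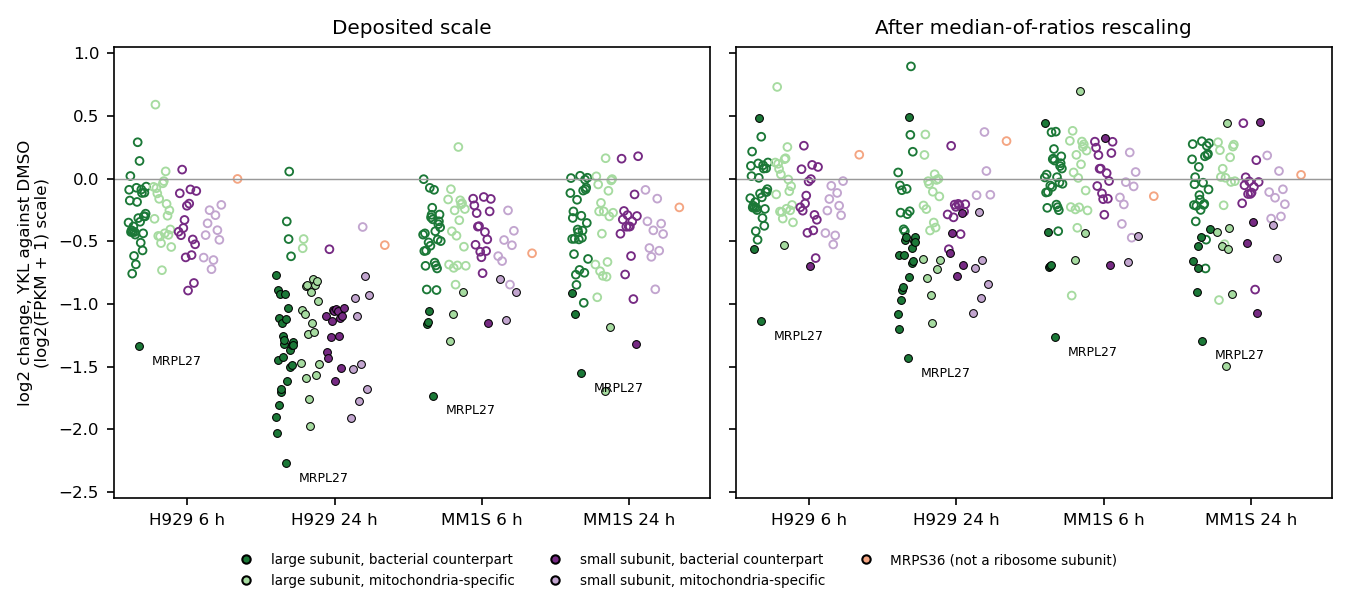
Each circle is a gene's log2 change with YKL-5-124 against DMSO on the log2(FPKM + 1) scale, by line and time, on the deposited scale (left) and after rescaling (right). Colours are the classes of subunit, and filled circles passed an adjusted p of 0.05. MRPL27 is filled and low in every column, while most of the filled circles stand at 24 h in H929.

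MRPL27, the counterpart of bacterial bL27, whose tail reaches toward the catalytic centre of the ribosome, was the only one of the 77 genes that fell in all 4 comparisons on both scales. In H929 at 6 h it read 518, 772 and 709 FPKM with DMSO and 181, 313 and 310 with YKL-5-124. At 24 h the H929 values were 792, 615 and 639 against 175, 75.03 and 208. MM1S held lower levels, 262, 239 and 305 FPKM against 75.3, 80.6 and 84.4 at 6 h. At 24 h they were 101, 164 and 82.4 against 26.1, 40.6 and 48.7. In all 4 comparisons every treated library was below every control. The deposited log2 changes in H929 were -1.34 (SE 0.33, adjusted p = 0.0327) at 6 h and -2.27 (adjusted p = 2.34e-05) at 24 h, and those in MM1S were -1.73 (adjusted p = 0.00253) and -1.55 (adjusted p = 0.00392). After rescaling they were -1.14 (SE 0.19, adjusted p = 0.000722), -1.43 (adjusted p = 8.06e-06), -1.26 (adjusted p = 0.000152) and -1.29 (adjusted p = 3.28e-05). Only the H929 6 h call on the deposited scale was lost when libraries were left out, in 5 of 6 cases, with changes from -1.07 to -1.47, and it was also lost with the 2 groups fitted alone.

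MRPL27 starts 6 bases from the start of EME1, which lies on the other strand and encodes a partner of the DNA nuclease MUS81. EME1 was sparse, from 0.138 to 12.5 FPKM, and was called in none of the 4 comparisons. Its log2 changes on the deposited scale were 1.47 (adjusted p = 0.215) at 6 h and 0.13 at 24 h in H929, against 0.92 (adjusted p = 0.322) and -0.17 in MM1S. The stretch printed above for MRPL27 overlaps annotated exons of transcripts of both genes.

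MRPL48, a mitochondria-specific protein of the central protuberance, was called lower at 24 h in both lines and at 6 h in neither. At 6 h its levels in H929 were 91.7, 88.8 and 112 FPKM with DMSO and 76.3, 108 and 102 with YKL-5-124, which overlap. In MM1S at 6 h they were 89.0, 96.2 and 74.3 against 49.4, 47.5 and 62.9, apart but not called (log2 change -0.69). At 24 h H929 had 70.3, 85.01 and 69.0 FPKM against 19.99, 13.4 and 22.7, and MM1S 22.9, 34.8 and 18.1 against 6.47, 7.09 and 7.05. The treated libraries were well below the controls in both lines. The deposited changes at 24 h were -1.97 (SE 0.24, adjusted p = 3.22e-06) and -1.69 (adjusted p = 6.5e-05), and the rescaled ones -1.15 (SE 0.12, adjusted p = 4.05e-07) and -1.496 (adjusted p = 1.23e-08). The difference between the 24 h and the 6 h response was called in H929 on both scales, -1.93 (adjusted p = 0.00221) and -1.30 after rescaling (adjusted p = 4.2e-05). In MM1S it was -0.998 on the deposited scale (adjusted p = 0.342) and -1.27 after rescaling (adjusted p = 5.39e-05).

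MRPL54, a mitochondria-specific protein near the stalk, and MRPL17, the bL17 protein at the tunnel exit, fell in H929 at 24 h and in MM1S at both times on both scales. MRPL54 in H929 at 24 h read 596, 702 and 634 FPKM with DMSO and 253, 151 and 267 with YKL-5-124. In MM1S it read 572, 617 and 491 against 313, 259 and 323 at 6 h, and 128, 308 and 150 against 72.4, 70.7 and 96.7 at 24 h. No treated library reached a control in these 3 comparisons. Its rescaled changes were -0.72 (SE 0.13, adjusted p = 0.000173), -0.44 (adjusted p = 0.0245) and -0.92 (adjusted p = 1.7e-05). The deposited MM1S 24 h call of MRPL54 was lost without MM1S DMSO 24 h replicate 2 or YKL-5-124 24 h replicate 1 or 2, and with the 2 groups fitted alone. MRPL17 had 46.2, 64.3 and 48.1 FPKM against 15.02, 11.5 and 20.8 in H929 at 24 h, and 9.60, 15.8 and 7.65 against 3.83, 4.13 and 5.55 in MM1S. Its groups were apart in both lines, with rescaled changes of -0.89 (adjusted p = 6.98e-05) and -0.90 (adjusted p = 7.5e-05).

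MRPS6, the bS6 protein of the small-subunit platform, fell in the same 3 comparisons. At 24 h it read 125, 111 and 102 FPKM against 47.1, 22.5 and 53.8 in H929, and 64.0, 60.3 and 24.9 against 13.2, 16.9 and 25.03 in MM1S. The MM1S groups touched, since the lowest control lay just under the highest treated library. After rescaling the MM1S 24 h values were 146, 75.4 and 69.0 against 34.04, 40.9 and 56.1, with MM1S DMSO 24 h replicate 1 far above its fellows, and the change was -1.07 (SE 0.23, adjusted p = 0.0015). The deposited MM1S 24 h call was lost when MM1S DMSO 24 h replicate 1 or 2 or YKL-5-124 24 h replicate 1 or 2 was left out, and the 6 h call when any of its 6 libraries was. With the 2 groups fitted alone the 24 h call was lost on both scales. MRPS6 overlaps SLC5A3 on the same strand in the annotation, so reads of the pair may have been shared.

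MRPL11, the uL11 protein of the stalk base, was lower in both lines at 24 h and in neither at 6 h. After rescaling it read 102, 114 and 120 against 47.3, 50.03 and 47.2 in H929 at 24 h. In MM1S it read 92.4, 110 and 115 against 64.8, 60.3 and 75.1. Both pairs were apart, with changes of -1.20 (SE 0.11, adjusted p = 9.2e-08) and -0.65 (adjusted p = 0.000155). Its neighbour PELI3 overlaps it on the other strand, and whether the counting used strand is not given in the sources used here. MRPL12, the stalk protein that contacts translation factors, fell in H929 at 24 h on both scales, by 1.45 and, after rescaling, by 0.61 (adjusted p = 0.0201).

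**Figure D3:**
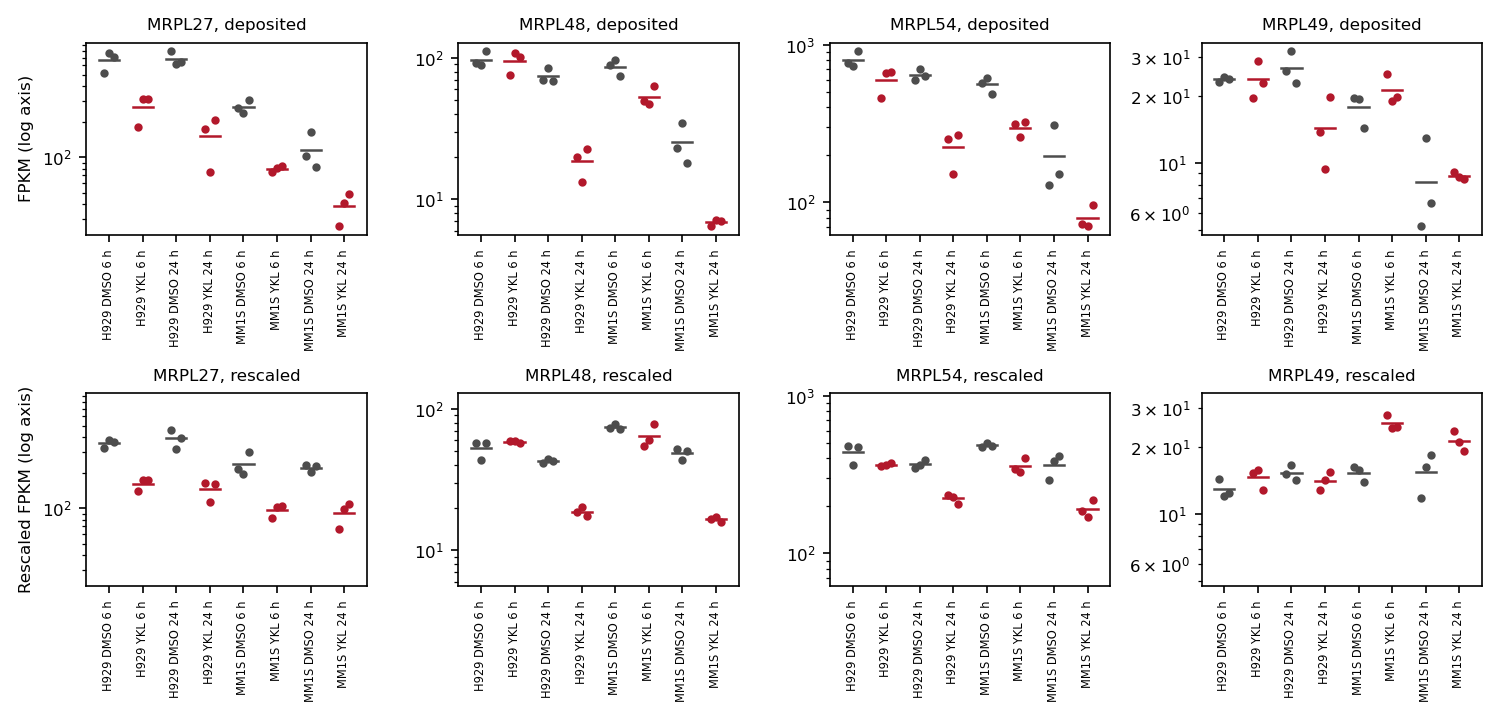
Levels of MRPL27, MRPL48, MRPL54 and MRPL49 in the 24 libraries, in FPKM as deposited (top) and after rescaling (bottom), on log axes. Dots are libraries, lines are means of 3, red is YKL-5-124 and grey DMSO. MRPL27 is lower with treatment in every pair, MRPL48 most clearly at 24 h, and MRPL49 is higher in MM1S after rescaling.

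Few genes rose, and none did on the deposited scale. MRPL49, a mitochondria-specific large-subunit protein, was the only gene called higher more than once after rescaling. Its rescaled levels in MM1S were 16.3, 15.9 and 13.98 with DMSO and 27.7, 24.3 and 24.7 with YKL-5-124 at 6 h, and 11.9, 16.2 and 18.4 against 23.5, 21.0 and 19.1 at 24 h. The groups were apart at both times, with changes of 0.70 (SE 0.13, adjusted p = 0.0015) and 0.44 (adjusted p = 0.0172). On the deposited scale the changes were 0.25 and 0.16, and neither was called. The 24 h call was lost without MM1S DMSO 24 h replicate 1 or YKL-5-124 24 h replicate 1, and with the 2 groups fitted alone. MRPL49 overlaps FAU, a cytosolic ribosomal protein gene of 3070 to 14200 FPKM, on the other strand, and FAU rose in MM1S at 6 h after rescaling (0.46, adjusted p = 0.0038) and changed by -0.14 (adjusted p = 0.318) at 24 h.

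The other higher calls after rescaling were MRPL23 (0.48, adjusted p = 0.0485) in H929 at 6 h, MRPL28 (0.49, adjusted p = 0.0445) in H929 at 24 h, MRPL10 (0.45) and MRPS21 (0.32) in MM1S at 6 h, and MRPS9 (0.46) in MM1S at 24 h. Each of these 5 calls was lost when at least 4 single libraries were left out in turn. MRPL28 read 59.6, 68.3 and 77.7 in H929 at 24 h with DMSO and 98.9, 119 and 75.7 with YKL-5-124 after rescaling, and these overlap. MRPS36, the gene that is no ribosome component, was called in none of the 4 comparisons on either scale. On the deposited scale MRPL28, MRPL32, MRPL33, MRPL36, MRPL40, MRPS14, MRPS31 and MRPS36 were not called in any.

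The lines were then set against each other. At 6 h no gene differed in response between H929 and MM1S on either scale, beside 0.169% and 1.14% of all tested genes called in either direction. By limma's unadjusted p under 0.05, the response of 3 was higher in H929 on the deposited scale, and after rescaling that of 5 was higher and that of 11 lower. These unadjusted counts are given without the share of all tested genes. At 24 h, 2 genes were lowered more in H929 on the deposited scale, beside 1.07% of all tested genes. After rescaling there were 17, beside 4.32% (median difference -0.19 against 0.08 over all tested genes). The deposited count was 0 without H929 DMSO 24 h replicate 2, MM1S DMSO 24 h replicate 1 or MM1S YKL-5-124 24 h replicate 2 or 3, 37 without MM1S DMSO 24 h replicate 2 and 14 without H929 YKL-5-124 24 h replicate 3. Other single libraries gave 1 or 2. The rescaled count ran from 8 (without H929 DMSO 24 h replicate 3) to 16, with 9 to 11 without H929 DMSO 24 h replicate 2, H929 YKL-5-124 24 h replicate 2 or MM1S YKL-5-124 24 h replicate 3, and was 12 without both libraries of wide spike-in spread. With the 4 groups of the contrast fitted alone, the counts were 0 on the deposited scale and 8 after rescaling. Among genes that reach 5 FPKM, 19 were lower after rescaling, beside 6.71%.

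MRPL1, a protein of the movable L1 stalk, and MRPS18B, a mitochondria-specific small-subunit protein, were the 2 genes. After rescaling MRPL1 at 24 h read 36.7, 34.1 and 37.4 with DMSO and 19.3, 15.95 and 14.7 with YKL-5-124 in H929. In MM1S it read 40.4, 41.8 and 46.1 against 40.6, 51.6 and 51.7. The H929 groups were apart and the MM1S groups overlapped. MRPS18B read 415, 376 and 411 against 213, 157 and 205 in H929, and 160, 211 and 234 against 212, 229 and 239 in MM1S. Again the separation was in H929. The difference in response was -1.78 (SE 0.38, adjusted p = 0.0178) for MRPL1 and -1.82 (SE 0.45, adjusted p = 0.0442) for MRPS18B on the deposited scale. It was -1.23 (adjusted p = 0.000463) and -1.25 (adjusted p = 0.00105) after rescaling. On the deposited scale the MRPL1 call was lost without H929 DMSO 24 h replicate 2, MM1S DMSO 24 h replicate 1 or MM1S YKL-5-124 24 h replicate 2 or 3, and that of MRPS18B in 9 of 12 cases. Both deposited calls were lost with the 4 groups fitted alone. MRPS18B overlaps PPP1R10 on the other strand.

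MRPS18A, MRPS18B and MRPS18C are paralogs of one another and are related to bacterial bS18. In the classes used here only MRPS18C was counted as having a bacterial counterpart. In H929 at 24 h after rescaling, MRPS18B changed by -1.07 (SE 0.15, adjusted p = 2.31e-05), MRPS18C by -0.23 (adjusted p = 0.0502) and MRPS18A by -0.14. Differences among the paralogs were not tested.

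**Figure D4:**
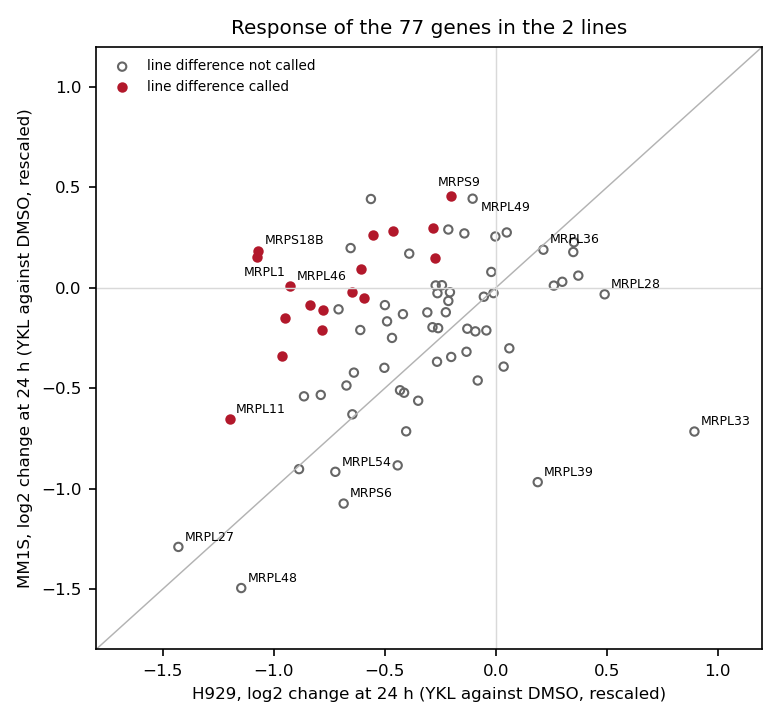
Rescaled log2 change of each of the 77 genes at 24 h in H929 (horizontal) against MM1S (vertical), with the line of equality. Red points are the 17 genes whose difference between the lines was called. MRPL27 and MRPL48 are low in both lines, while MRPL1 and MRPS18B are low in H929 alone.

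Between the times, 7 genes had a lower H929 response at 24 h than at 6 h on the deposited scale. This stood beside 6.18% of all tested genes and 7.79% of genes that reach 5 FPKM. After rescaling it was 8 genes, beside 4.65% and 7.21%. The largest on both scales were MRPL48, given above, and MRPL11, at -1.86 (SE 0.38, adjusted p = 0.00737) and -1.22 after rescaling (adjusted p = 4.07e-05). Without H929 YKL-5-124 24 h replicate 3 the deposited count was 21, without H929 YKL-5-124 6 h replicate 1 it was 17, and without any other single library it was 2 to 5. With the 4 groups alone it was 4. The rescaled count ran from 5 to 9, with 5 without DMSO 6 h replicate 2, YKL-5-124 6 h replicate 1 or 2, or DMSO 24 h replicate 3. In MM1S none was called on the deposited scale, beside 0.0805% called in either direction. There 1 had an unadjusted limma p under 0.05, a count given without the share of all tested genes. After rescaling 7 were lower, beside 6.28% of all tested genes and 9.13% of genes that reach 5 FPKM, as all 77 do. The share of the 77 called lower was thus near that of genes above this floor, which is no match on level. These 7 were MRPL11, MRPL23, MRPL37, MRPL48, MRPL51, MRPS21 and MRPS27. Leaving out single libraries gave 3 to 7, with 3 without YKL-5-124 6 h replicate 3 and 4 without DMSO 6 h replicate 2 or YKL-5-124 24 h replicate 1 or 2, and the 4 groups alone gave 3. MRPL48, MRPL11 and MRPL37 were called in both lines after rescaling.

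Without treatment the lines differed widely. With DMSO, 73 genes were higher in H929 than in MM1S on the deposited scale and none lower, beside 61.7% and 10.3% of all tested genes, with a median of 1.59 against 0.71. Among genes that reach 5 FPKM it was 74, beside 74.9%. After rescaling 49 were higher and 11 lower, beside 26.6% and 41.1% (median 0.38 against -0.18). For 7 genes the call changed direction between the scales. MRPL52, a mitochondria-specific large-subunit protein, ranged from 96.8 to 150 over the 6 H929 DMSO libraries after rescaling and from 18.7 to 44.6 in MM1S. MRPS30 ranged from 50.4 to 65.9 and from 16.98 to 22.7. The reverse order was seen for MRPS33, from 133 to 169 in H929 and from 323 to 463 in MM1S. None of these 3 pairs of ranges overlapped. MRPL33 was lower in H929 after rescaling (-1.65), where MM1S DMSO 24 h replicate 1 stood at 2491 and the other MM1S DMSO libraries at 534 to 724.

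Time in DMSO mattered on the deposited scale in MM1S. There 72 genes were lower at 24 h than at 6 h, beside 56.0% of all tested genes (median -1.24 against -0.74), and 73 beside 74.6% among genes that reach 5 FPKM. After rescaling 15 were lower and 3 higher, beside 5.38% and 10.3% (median -0.11 against 0.13). With the 2 groups fitted alone all of these calls after rescaling were lost, none being higher or lower, while 57 were lower on the deposited scale. MRPL12 changed most, with -2.27 (SE 0.30, adjusted p = 6.78e-05) and -1.09 after rescaling (adjusted p = 0.00152). Its rescaled levels were 301, 387 and 229 at 6 h and 121, 148 and 154 at 24 h, which do not overlap. In H929 none was called on the deposited scale, beside 0.145% called in either direction. There 5 had an unadjusted limma p under 0.05, a count given without the share of all tested genes. After rescaling MRPL37 alone was lower (-0.58, adjusted p = 0.0244), beside 0.378%, and its call was lost in 5 of 6 cases when a library was left out and with the 2 groups fitted alone.

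Other genes of mitochondrial translation were read off the same fit. The 6 further subunits with unrelated names (DAP3, CHCHD1, AURKAIP1, PTCD3, ICT1 and GADD45GIP1) all fell on the deposited scale with 24 h of treatment in H929, beside 35.4% of all tested genes. After rescaling GADD45GIP1 (-0.66), PTCD3 (-0.67) and ICT1 (-0.72) did. In MM1S none of the 6 was called at either time on either scale. Of 24 genes for assembly of the particle, 7 fell (29.2%) and 1 rose in H929 at 24 h after rescaling, where 12.5% of all tested genes were lower and 20.8% higher. The assembly factor MALSU1 changed by -1.21 (adjusted p = 4.33e-05) and the rRNA methyltransferase MRM1 by -1.21 (adjusted p = 0.00138). In MM1S at 24 h, RBFA, which binds the maturing small subunit, fell by 0.83 (adjusted p = 0.000587), and FASTKD2 fell by 0.33.

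Of 18 translation factors, 4 fell (22.2%) and 1 rose in H929 at 24 h after rescaling, and none was called in MM1S at either time. Of 17 mitochondrial aminoacyl-tRNA synthetases, 2 fell (11.8%, near the 12.5% of all tested genes) and 1 rose in H929 at 24 h after rescaling. In MM1S 5 fell (29.4%), beside 13.3% of all tested genes. SARS2, which charges serine tRNAs and whose start lies 348 bases from that of MRPS12, fell in both lines (-0.99, adjusted p = 0.000256, and -0.93, adjusted p = 0.000606). MRPS12, the decoding-centre protein, changed by -0.59 and -0.05 in the same comparisons. TFAM, which packages mitochondrial DNA and helps start its transcription, fell in H929 at 24 h (-0.60, adjusted p = 0.000302), and in MM1S its change was -0.16 (adjusted p = 0.319). Among 9 regulators of mitochondrial genes none was called at 24 h in either line after rescaling, and on the deposited scale 6 fell in H929, among them NRF1 (-1.12), YY1 (-1.06) and PPRC1 (-1.02). On that scale 35.4% of all tested genes were called lower in H929 at 24 h.

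Cytosolic ribosomal proteins and nuclear genes of oxidative phosphorylation give a scale for these values. Of 79 cytosolic ribosomal protein genes, 43 fell in H929, and 40 fell and 1 rose in MM1S, at 24 h after rescaling (medians -0.44 and -0.41), and the difference between the lines was called for none. Of 75 oxidative phosphorylation genes, 11 rose and 5 fell in H929 (median 0.06), and 1 rose and 23 fell in MM1S (median -0.32). All tested genes gave 20.8% higher and 12.5% lower in H929, and 14.4% and 13.3% in MM1S. For 16 of the oxidative phosphorylation genes the response was higher in H929 than in MM1S and for none lower. The 17 mitochondrial ribosomal protein genes called in that contrast were all lower in H929. Of genes that reach 5 FPKM, 10.7% were higher and 6.71% lower there. At 6 h in MM1S after rescaling, 17 oxidative phosphorylation genes rose, 9 cytosolic ribosomal protein genes rose and none of either list fell. Of all tested genes 8.25% were higher and 7.22% lower there. These lists share their libraries with the 77 genes.

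Many of the 77 genes have a close neighbour. The start of 29 (37.7%) lay within 1000 bases of the start of a protein-coding gene on the other strand, against 1972 of 10671 tested genes (18.5%). Among 21 tested partners outside the set, 1 rose and 11 fell on the deposited scale in H929 after 24 h, and 3 rose and 4 fell after rescaling. All tested genes gave 35.4% lower there, and 12.5% lower and 20.8% higher after rescaling. In MM1S at 24 h, 6 rose and 6 fell after rescaling, beside 14.4% and 13.3%. Within the set MRPL46 and MRPS11 start 34 bases apart. At 24 h in H929 MRPL46 changed by -0.93 after rescaling (adjusted p = 7.09e-06) and MRPS11 by -0.56 (adjusted p = 0.0725). A tested gene on the other strand overlapped 20 of the 77 genes, and 5 overlapped one on the same strand. For these, reads of the pair may not be separable.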

How the data were processed

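RNA was measured by QuantSeq 3′ libraries from about 2.5e5 cells per sample, per the labels' protocols. The authors deposited FPKM per gene (26341 entries, 92 of them spike-ins), made with HISAT2 and Cuffnorm on hg19, per the submitters' processing notes. Whether replicates are separate cultures is not stated, so the spread that p-values rest on is that among libraries and may be technical. FPKM of 3′ reads divides by a length that the reads do not cover, and overlapping genes can share reads.

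Values were taken to log2(FPKM + 1), a gene was kept if 3 or more of 24 libraries reached 1 FPKM (12418 genes), and limma 3.58.1 (R 4.3.3, trend) was fitted to 8 group means, with Benjamini-Hochberg adjustment at 0.05. Changes of low genes are understated. Rescaling used the median of ratios over the 6014 genes whose geometric mean reached 5 FPKM. The procedure was tested on simulated data with independent noise for each gene and a seeded set of genes changed in a single group. Those data held no shift of scale shared by the genes of a library. They therefore cannot show how calls on the deposited scale behave under such shifts. Members, lists and rules were chosen with earlier results of these data known, and MRPL57 was added to the large-subunit list later. Values per library were given for the called genes with the largest changes and for a fixed set of subunits, and further genes were chosen after their values were seen. Promoters came from RefSeq and gene neighbours from GENCODE. The alternatives were another pseudocount, other filters, a replicate block, fewer groups and libraries left out.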

Additional observations from a re-analysis of the deposited data

Results flagged for a closer look

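These results are differences in response that passed limma's test, adjusted over all tested genes. Each is a log2 difference over groups of 3 libraries, and no cause was tested. Between the lines at 24 h, H929 against MM1S, the difference was -1.78 for MRPL1 and -1.82 for MRPS18B on the deposited scale. After rescaling it was -1.23 for MRPL1, -1.25 for MRPS18B and -0.93 for MRPL46, a protein of the central protuberance.

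Between 24 h and 6 h in H929 on the deposited scale the differences were -1.55 for MRPL1, -1.86 for MRPL11, -1.47 for MRPL12, -1.32 for MRPL17, -1.41 for MRPL37, -1.93 for MRPL48 and -1.27 for MRPL9. After rescaling they were -1.30 for MRPL48, -1.22 for MRPL11 and -0.92 for MRPL1. In MM1S after rescaling they were -1.27 for MRPL48, -0.84 for MRPS27 and -0.72 for MRPL37. The MRPS27 call was lost without any of MM1S DMSO 6 h replicate 2, YKL-5-124 6 h replicate 3, DMSO 24 h replicate 1 or YKL-5-124 24 h replicate 1 or 2.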

How the results depend on the processing

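Of the values traced through the alternatives none changed direction within a scale, while between the scales the DMSO line difference changed direction for 7 genes. The alternatives were applied to both scales; those on the rescaled values and the 5 FPKM background were chosen after seeing the data. Counts below are of genes called. The cause of each shift was not tested. Rescaling by the median of ratios gave, with YKL-5-124, 1 higher and 4 lower in H929 at 6 h, 1 and 34 at 24 h, 3 higher in MM1S at 6 h, and 2 and 18 at 24 h. It gave 11 lower for H929 against MM1S in DMSO, 1 lower for time in H929 DMSO, 3 higher and 15 lower for time in MM1S DMSO, 17 lower for the 24 h line difference and 7 lower for the MM1S time difference.

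Without a filter the deposited lower counts were 0 (H929 6 h), 5 (MM1S 6 h), 1 (24 h line difference) and 3 (H929 time difference). The rescaled ones were 0 higher in H929 at 6 h and at 24 h, 1 higher in MM1S at 6 h and at 24 h, 5 higher for time in MM1S DMSO, and 9, 5 and 3 lower for the 24 h line, H929 time and MM1S time differences. A 5 FPKM filter gave 2 higher in H929 at 24 h after rescaling, and pseudocount 0.25 gave 1 for the 24 h line difference. Without both libraries of wide spike-in spread the deposited counts were 4 (MM1S 6 h) and 0 (24 h line difference). The rescaled counts were 9 lower in H929 at 6 h, 4 higher in H929 at 24 h, 1 higher for time in MM1S DMSO and 1 lower for the 6 h line difference.

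Fitting only the groups compared gave, on the deposited scale, 0 (H929 6 h), 38 (MM1S 6 h), 2 (MM1S 24 h), 0 (24 h line difference) and 4 (H929 time difference). After rescaling it gave 0 higher in H929 at 6 h and 2 at 24 h, 1 higher and 5 lower in MM1S at 6 h, 0 higher and 7 lower at 24 h, 0 lower for time in H929 DMSO, 0 higher and 0 lower for time in MM1S DMSO, 8 for the 24 h line difference and 3 for the MM1S time difference. With the replicate number as a block the deposited counts were 1 (24 h line difference) and 4 (H929 time difference), and the rescaled higher counts were 0 in H929 at 6 h and 24 h. Libraries with the same number did not deviate together (r from -0.11 to 0.18), so the numbers were not taken to pair them.

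Leaving out single libraries gave deposited lower counts of 0 to 1 (H929 6 h), 3 to 6 (MM1S 6 h), 2 to 17 (MM1S 24 h), 0 to 1 (line in DMSO), 0 to 37 (24 h line difference) and 2 to 21 (H929 time difference). After rescaling the higher counts were 0 to 1 in H929 at 6 h and at 24 h, 1 to 4 and 1 to 3 in MM1S at 6 h and 24 h, 1 to 4 for time in MM1S DMSO and 0 to 1 for the 24 h line difference. The rescaled lower counts were 6 to 7 in MM1S at 6 h, 0 to 6 for time in H929 DMSO, 8 to 16, 5 to 9 and 3 to 7 for the 24 h line, H929 time and MM1S time differences. Depth is unknown, and 3 libraries a group limit the precision.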
